A study of Arabidopsis thaliana with 16 samples.

Results

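Transporters of the ZIP family (ZRT- and IRT-like proteins) carry Zn and other divalent metals across membranes into the cytosol. In Arabidopsis thaliana, the transcripts of several of them are known to rise when Zn is short, under the transcription factors bZIP19 and bZIP23, which sense the Zn status of the cell. The 7 members described here, of 22810 probe sets in the deposited table, were listed by probe set. They were chosen with earlier results of these data known. Counts of members called, set below against all probe sets, are therefore not independent of that choice. The members were IRT3 (259723_at, locus AT1G60960), ZIP4 (260462_at, AT1G10970), ZIP9 (253413_at, AT4G33020), ZIP5 (264574_at, AT1G05300), ZIP12 (247456_at, AT5G62160), ZIP1 (257715_at, AT3G12750) and ZIP6 (267304_at, AT2G30080). The platform annotation pairs 2 of these probe sets, those of ZIP9 and ZIP6, with their gene. For the other 5 the name came with the definition of the set, and the locus is the RefSeq gene of that name.

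The study used 16 Affymetrix ATH1 arrays of 1 colour, 2 for each of 8 groups. In a 7-week experiment, wild-type plants spent 4 weeks in hydroponic control medium and then 3 weeks in control or Zn-deficient medium, which gave control shoots, control roots, Zn-deficient shoots and Zn-deficient roots. In a 21-day experiment on agar, wild-type and hma2 hma4 double-mutant seedlings were moved at 7 days to fresh plates of control medium for 14 days, which gave wild-type and hma2 hma4 shoots and roots. HMA2 and HMA4 are pumps that load Zn into the xylem, so that plants without both are known to move less Zn from root to shoot. No probe set of the annotation used here is paired with HMA2 or HMA4, so the mutant label was not checked on its own genes. The labels do not say whether 2 arrays of a group came from separate plants or cultures. The p-values rest on the spread between arrays within groups, pooled over all groups of a fit, and that spread may be technical. The small number of arrays limits the precision of every value.

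Median signals of the arrays ran from 136 to 217 units, on a scale on which every array has a trimmed mean of 500. The organ labels were checked on marker genes. The 5 shoot markers that the annotation names read 4000.5 to 19968 in 7-week shoots against 1.77 to 160.0 in 7-week roots, and 11843 to 21614 against 114 to 549.7 in 21-day plants. The 3 root markers read 332 to 9435 in roots against 16.1 to 2547 in shoots of 7-week plants, ranges that overlap, and 555 to 6425 against 20.1 to 124 in 21-day plants. Signals of the members lay above 52.2, the highest of 3 Trpn control probe sets, for a bacterial gene, on all 16 arrays for 5 members, on 15 for ZIP9 and on 13 for ZIP12. The remaining arrays were all from the 21-day experiment. In whole organs, fewer cells of a type and less RNA per cell cannot be told apart.

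**Figure D1:**
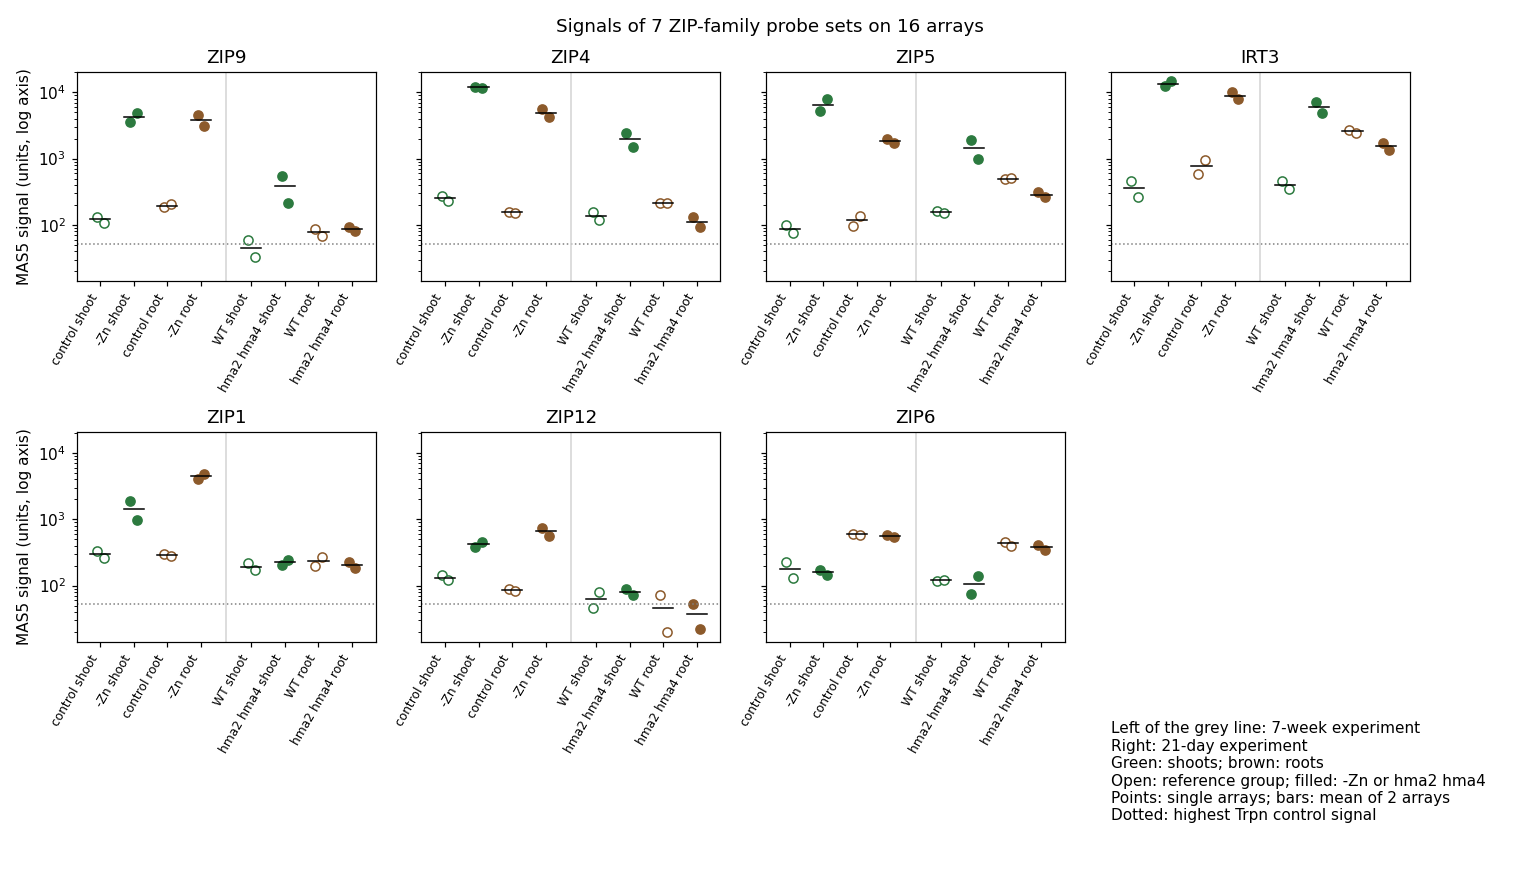
MAS5 signal (units, log axis) of each of the 7 probe sets on the 16 arrays, with 7-week groups left and 21-day groups right of the grey line, points for arrays, bars for means of 2 arrays and a dotted line at 52.2. The Zn-deficient shoot points of IRT3 lie at 12415 and 14580.4, and those of ZIP6 lie among its control shoot points.

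Zn deficiency in shoots was the first comparison, with the question of which of the 7 listed members respond to low Zn. Of the 7 members, 6 were higher in Zn-deficient than in control shoots (limma, Benjamini-Hochberg adjusted p under 0.05 over all 17059 probe sets tested), and none was lower. Among all probe sets tested, 0.768% were higher by that rule. The arrays of the 2 groups did not overlap for 6 of the 7 members and for 41% of all probe sets tested. The median log2 change of the 7 members was 5.01, and that of all probe sets tested was -0.02. All log2 changes are on the log2(signal + 8) scale, which understates the change of dim probe sets, and folds are taken from them. All 7 members passed the filter on low signals in both experiments. In the 21-day experiment ZIP12 passed narrowly, with a mean signal of 56.3 against a filter of 49.1. It passed only through its shoot groups, since its means of 45.6 in wild-type and 37.4 in hma2 hma4 roots lay below the filter. The 21-day tests of ZIP12 carry that limit.

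The 4 largest rises in shoots were those of the uptake transporters ZIP5, ZIP4, IRT3 and ZIP9. ZIP5 read 99.3 and 76.4 on the control shoot arrays and 5150.2 and 7851 on the Zn-deficient ones. Its log2 change was 6.06 (SE 0.303, limma adjusted p = 7.8e-05), a 66.9-fold rise and the 2nd largest rise of all probe sets tested. ZIP4, a Zn transporter of shoots and roots, read 274 and 233 in control shoots and 11928 and 11774 in Zn-deficient shoots. These 4 values left a gap of 42.9-fold between the highest control and the lowest deficient array, and the fitted rise was 45.5-fold (log2 5.51, SE 0.236, limma adjusted p = 6.49e-05).

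IRT3, a plasma membrane transporter of Zn and Fe, read 455 and 268 in control shoots against 12415 and 14580.4 in Zn-deficient shoots. Its rise was 37.7-fold (log2 5.24, SE 0.331, limma adjusted p = 0.000223). ZIP9, a target of bZIP19 and bZIP23, read 134 and 109 in control shoots against 3512 and 4895 in Zn-deficient shoots, a 32.3-fold rise (log2 5.01, SE 0.285, limma adjusted p = 0.000123). In each of these 4 members both deficient arrays were far above both control arrays. Leaving out any 1 of the 8 arrays of the experiment kept all 4 calls.

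ZIP1 and ZIP12 rose less and their calls were not firm. ZIP1, which in Arabidopsis is placed at the vacuolar membrane, read 332 and 262 in control shoots and 1858 and 983 in Zn-deficient shoots, and the Zn-deficient arrays were the higher pair without overlap. The rise was 4.49-fold (log2 2.17, SE 0.325, limma adjusted p = 0.0322). ZIP12, another target of the bZIP regulators, read 142 and 120.0 in control shoots and 378 and 459 in Zn-deficient shoots, again without overlap, a 3.06-fold rise (log2 1.61, SE 0.268, limma adjusted p = 0.0416). With 1 array left out, the ZIP1 call was kept in 1 of 8 fits, the one without Zn-deficient shoot replicate 2 (log2 2.62). In the other 7 fits the ZIP1 adjusted p lay between 0.0563 and 0.138. The ZIP12 call was kept in none of the 8 fits, at log2 changes of 1.48 to 1.75 and limma adjusted p of 0.0618 to 0.152.

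ZIP6 did not pass the test. It read 226 and 132 in control shoots and 174 and 143 in Zn-deficient shoots, so the Zn-deficient arrays lay inside the control range. The log2 difference was -0.13, with a 95% interval from -0.80 to 0.55 (limma adjusted p = 0.873). That interval excludes the size of every rise named above.

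Other measures moved with this comparison. The summed signal of the 3 root markers was 2126 to 2689 on the Zn-deficient shoot arrays and 153 to 497 on the control shoot arrays. F6'H1, a coumarin synthesis enzyme that is also induced by Fe shortage, made up 2002 to 2547 of it. EXPA7 and EXPA18, expansins of root hair cells, read 16.5 to 125 on the Zn-deficient shoot arrays and 58.8 to 131 on the control shoot arrays, against 332 to 945 in 7-week roots. The summed shoot markers were 52869 to 55838 in Zn-deficient and 69915 to 78545 in control shoots. The ratio of 3′ to 5′ signal of actin, a measure of RNA quality, was 1.74 and 8.57 on the Zn-deficient shoot arrays, the higher on replicate 1, and 2.36 to 2.70 on the control shoot arrays. The part of these measures in the shoot rises was not tested.

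In 7-week roots the same question gave 6 of 7 members higher in Zn-deficient plants and none lower (limma adjusted p under 0.05). This was 6 of the 18 probe sets called higher, which are 0.106% of those tested. The arrays did not overlap for any of the 7 members, nor for 32.7% of all probe sets tested. The median log2 change of the 7 members was 3.90, and that of all probe sets tested was 0.02. The rises of the 6 members ranked between 6th and 20th of all 17059. The actin ratio was 5.30 to 5.67 on the Zn-deficient root arrays and 3.91 to 4.25 on the control root arrays, without overlap, and its part in the root rises was not tested.

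ZIP4 rose most. It read 158 and 153 in control roots and 5522 and 4200.3 in Zn-deficient roots, a 29.5-fold rise (log2 4.88, SE 0.236, limma adjusted p = 6.35e-05). ZIP9 read 187 and 206 in control roots and 4512 and 3135 in Zn-deficient roots, an 18.5-fold rise (log2 4.21, SE 0.285, limma adjusted p = 0.000480). Neither member had overlapping arrays, and the gap between the nearest arrays of the groups was 26.6-fold for ZIP4 and 15.2-fold for ZIP9.

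ZIP1 and ZIP5 rose by similar amounts. The ZIP1 probe set read 299.6 and 276 in control roots against 4038 and 4850.0 in Zn-deficient roots (15.0-fold, log2 3.91, SE 0.325, limma adjusted p = 0.00159). ZIP5 read 96.3 and 138 in control roots against 1953 and 1729 in Zn-deficient roots (15.0-fold, log2 3.90, SE 0.303, limma adjusted p = 0.00101). The calls of ZIP4, ZIP9, ZIP1 and ZIP5 in roots were kept in all 8 fits with 1 array left out.

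IRT3 was already well above background in control roots, where it read 587 and 963, and it reached 9999 and 7787 in Zn-deficient roots. The rise was 11.6-fold (log2 3.54, SE 0.331, limma adjusted p = 0.00384), and it lost its call without Zn-deficient root replicate 1 (log2 3.36, limma adjusted p = 0.0709). ZIP12 read 89.9 and 84.0 in control roots and 748 and 559 in Zn-deficient roots, 6.90-fold higher (log2 2.79, SE 0.268, limma adjusted p = 0.00413). Its call was lost without control root replicate 1 (2.83, limma adjusted p = 0.0736), control root replicate 2 (2.74, 0.0864) or Zn-deficient root replicate 1 (2.58, 0.0836). ZIP6 read 606 and 577 in control roots against 575 and 544 in Zn-deficient roots. The control pair was the higher without overlap, but by a margin of 1.00-fold, and the log2 difference of -0.08 (95% interval -0.76 to 0.60) did not pass the test.

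**Figure D2:**
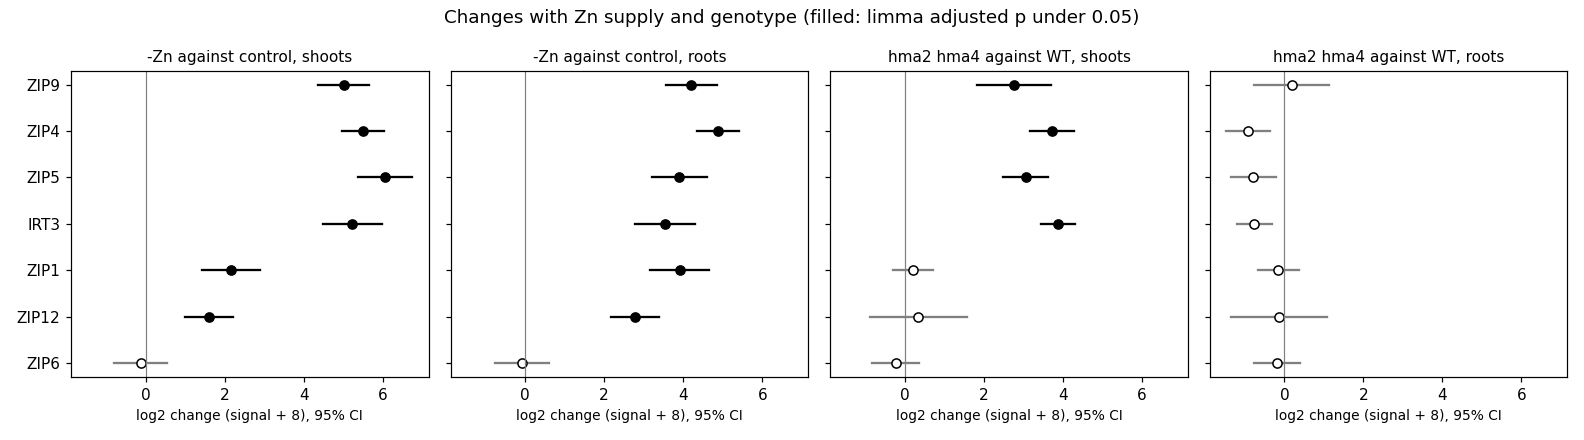
Log2 change of signal + 8 with its 95% interval for each member in the 4 comparisons of Zn supply and genotype, filled where the limma adjusted p was under 0.05. With Zn deficiency 6 members passed the test as higher in both organs, in hma2 hma4 shoots 4 did, and in hma2 hma4 roots none passed.

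The size of the Zn response differed between organs for some members before adjustment only. The interaction (response of roots minus response of shoots) was called for 0 of the 7 members by limma, and 0.0117% of all probe sets tested were called in either direction. Unadjusted p-values were under 0.05 for 4 of the 7 members and for 8.88% of all probe sets. ZIP5 responded less in roots, by a log2 difference of -2.16 (unadjusted p = 0.000782, limma adjusted p = 0.234), and so did IRT3, by -1.70 (limma adjusted p = 0.366). For ZIP1 the interaction was 1.74 (limma adjusted p = 0.349) and for ZIP12 it was 1.17 (limma adjusted p = 0.409), both toward the larger response in roots. ZIP9 had an interaction of -0.80, ZIP4 of -0.62 and ZIP6 of 0.05. With all 16 arrays in 1 fit, the ZIP5 interaction passed the threshold (limma adjusted p = 0.0370).

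In 21-day shoots the comparison of hma2 hma4 with wild type addresses which members change when Zn loading into the xylem is impaired on control medium. Of the 7 members, 4 were higher in hma2 hma4 shoots and none was lower (limma adjusted p under 0.05), while 0.188% of all probe sets tested were higher. The arrays did not overlap for 4 of the 7 members and for 36.8% of all probe sets tested. The median log2 change of the members was 2.76, and that of all probe sets tested was -0.04. IRT3 and ZIP4 had the 2 largest rises of all probe sets tested.

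IRT3 read 457 and 344 in wild-type shoots and 7177 and 4898 in hma2 hma4 shoots. Its rise was 14.7-fold (log2 3.88, SE 0.196, limma adjusted p = 1.03e-05). ZIP4 read 157 and 118 in wild-type shoots and 2412 and 1515 in hma2 hma4 shoots, a 13.3-fold rise (log2 3.73, SE 0.253, limma adjusted p = 8.27e-05). ZIP5 read 162 and 151 in wild-type shoots and 1915 and 976 in hma2 hma4 shoots, an 8.36-fold rise (log2 3.06, SE 0.257, limma adjusted p = 0.000479). In these 3 members replicate 1 of the mutant was the higher of the pair, both mutant arrays lay above both wild-type arrays, and the call was kept whichever of the 8 arrays was left out.

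ZIP9 read 58.6 and 32.6 in wild-type shoots, the second value below background, and 554 and 212 in hma2 hma4 shoots. The arrays did not overlap, and the rise was 6.77-fold (log2 2.76, SE 0.425, limma adjusted p = 0.0313). Its size depended on single mutant arrays, with a log2 change of 2.08 without hma2 hma4 shoot replicate 1 (limma adjusted p = 0.0582) and 3.43 without replicate 2 (limma adjusted p = 0.00479). The latter was the 1 fit of 8 that kept the call, and the adjusted p of the other 7 lay between 0.0582 and 0.105. It was also lost without a filter on low signals (limma adjusted p = 0.0628) and without the intensity trend (limma adjusted p = 0.126).

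ZIP1, ZIP12 and ZIP6 did not pass the test in hma2 hma4 shoots. The ZIP1 arrays overlapped, at 216 and 171 in wild type and 206 and 241 in the mutant, and the 95% interval of the log2 difference ran from -0.31 to 0.72. ZIP12 read 46.5 and 78.7 in wild-type and 87.6 and 71.8 in hma2 hma4 shoots, near background, with a wide interval from -0.88 to 1.57. ZIP6 read 119 and 122 in wild type and 73.5 and 138 in the mutant, a log2 difference of -0.23 (limma adjusted p = 0.858).

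In 21-day roots none of the 7 members passed the test, against 0.00586% of all probe sets tested in either direction (limma). Unadjusted p-values were under 0.05 for 3 members, ZIP4, IRT3 and ZIP5, and for 3.69% of all probe sets. The arrays of the genotypes did not overlap for these 3 of the 7 members and for 33.1% of all probe sets tested. ZIP4 read 215 and 213 in wild-type roots and 129.9 and 92.1 in hma2 hma4 roots, a log2 difference of -0.92 (95% interval -1.48 to -0.36, limma adjusted p = 0.983). IRT3 read 2685 and 2467 in wild-type roots against 1691 and 1363 in hma2 hma4 roots, a difference of -0.76 (95% interval -1.19 to -0.33, limma adjusted p = 0.900). ZIP5 read 488 and 511 in wild-type roots and 309 and 265 in hma2 hma4 roots, a difference of -0.78 (95% interval -1.35 to -0.22, limma adjusted p = 1.0). In all 3 the wild-type roots were the higher pair, the opposite of the order in shoots.

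The other 4 members overlapped between the root genotypes. ZIP9 read 86.6 and 67.5 in wild-type and 93.8 and 82.0 in hma2 hma4 roots (log2 difference 0.18). ZIP1 read 195 and 269 in wild-type and 229 and 184 in mutant roots (-0.15). ZIP6 read 459.7 and 402 in wild-type and 413 and 343 in mutant roots (-0.19). ZIP12 had 1 array of each genotype at 19.9 and 22.3, below background, with the others at 71.3 in wild type and 52.5 in the mutant, and the 95% interval of the log2 difference was wide (-1.36 to 1.09).

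The difference between the mutant responses of the organs was tested as an interaction (roots minus shoots). It was called for 3 of the 7 members, all negative, and for 0.0469% of all probe sets tested, or 8 in all (limma). The 3 members had the 3 most negative interactions on the array, at -4.65 for ZIP4 (SE 0.358, limma adjusted p = 0.000397), -4.63 for IRT3 (SE 0.277, limma adjusted p = 8.96e-05) and -3.85 for ZIP5 (SE 0.363, limma adjusted p = 0.00185). The interaction of ZIP9 was -2.58, the 8th most negative (limma adjusted p = 0.326). ZIP1 had -0.36, ZIP12 -0.48 and ZIP6 0.05, and none of them passed. The calls of ZIP4, IRT3 and ZIP5 were kept in every fit with 1 array left out, and that of ZIP5 was lost without the intensity trend (limma adjusted p = 0.115).

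Array quality differed with genotype. The signal of a 25S ribosomal RNA control probe set was 5387 to 6920 on the wild-type 21-day arrays and 1613 to 4240 on the hma2 hma4 arrays. In roots the actin ratio was 24.7 to 30.3 on wild-type and 22.8 to 23.5 on hma2 hma4 arrays, without overlap. In shoots it was 23.7 to 24.2 on wild-type and 17.3 to 25.6 on hma2 hma4 arrays, which overlap. The part of these measures in the mutant results was not tested.

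Organs were then compared within each condition. In these contrasts most probe sets differ, and the median log2 difference of all probe sets tested was 0.35 in control, 0.36 in Zn-deficient, 0.28 in wild-type and 0.30 in hma2 hma4 plants, which sets the level against which the members are read. With each array centred on its median, these medians were -0.07, -0.08, 0.05 and 0.02. In 7-week control plants 2 members were higher in roots, where 35% of all probe sets were, and 1 was lower, where 19.8% were. With quantile normalization or median centring the control split turned to 1 higher, ZIP6, and 2 lower, ZIP4 and ZIP12. In Zn-deficient plants 2 were higher (background 32.4%) and 2 lower (background 18.4%), or 3 lower with median centring, where IRT3 was added (-1.04, limma adjusted p = 0.0467). In 21-day wild type 3 were higher (background 39.5%) and none lower (background 21.6%), and in hma2 hma4 1 was higher (background 39.8%) and 4 were lower (background 21.6%). The share of all called probe sets that were higher in roots was 63.8%, 63.7%, 64.6% and 64.8% in these 4 conditions, and 48.4%, 45.7%, 52.4% and 50.2% with median centring.

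ZIP6 was the member with the same order of organs in every condition. It read 577 to 606 in control roots and 132 to 226 in control shoots, and the Zn-deficient, wild-type and mutant plants kept all root arrays above all shoot arrays. The log2 differences were 1.73, 1.78, 1.77 and 1.82 in control, Zn-deficient, wild-type and hma2 hma4 plants (limma adjusted p = 0.00133, 0.00133, 0.000156 and 0.000129), between 3.32-fold and 3.52-fold. They were 1.32 to 1.55 with median centring and stayed past the threshold.

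IRT3 and ZIP5 changed their order with genotype and passed the test in both genotypes. IRT3 was 6.39-fold higher in roots of 21-day wild type (log2 2.68, SE 0.196, limma adjusted p = 4.47e-07) and 3.89-fold lower in roots of hma2 hma4 (-1.96, limma adjusted p = 5.94e-06). ZIP5 was 3.08-fold higher in wild-type roots (1.62, SE 0.257, limma adjusted p = 0.000228) and 4.67-fold lower in hma2 hma4 roots (-2.22, limma adjusted p = 1.99e-05). In the 7-week control plants IRT3 was 2.13-fold higher in roots (1.09, limma adjusted p = 0.0215). That call was lost without control shoot replicate 2 (0.71, limma adjusted p = 0.125) or control root replicate 2 (0.73, 0.168), with quantile normalization (0.78, 0.0706) and with median centring (0.67, 0.157). Without either of these arrays the number of members called between control organs was 1 in place of 3. For ZIP5 the same contrast was 0.37 and did not pass.

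ZIP4 was lower in roots in 3 of the 4 conditions. The log2 difference was -0.67 in control plants (limma adjusted p = 0.0377), -1.30 in Zn-deficient plants (0.00204) and -4.03 in hma2 hma4 (1.32e-07), a 16.3-fold difference in the last. When single arrays were left out, 2 of 8 fits kept the control call, and the adjusted p of the other 6 lay between 0.0510 and 0.156. The control call was also lost with an added constant of 58 (-0.54, limma adjusted p = 0.0696) and without the intensity trend (limma adjusted p = 0.0511). In wild-type seedlings ZIP4 was 0.62 on the other side of 0, just outside the threshold (limma adjusted p = 0.0524), and it passed with array weights (0.0243), with the replicate block (0.0195) and in 5 of 8 fits with 1 array left out. ZIP5 was also lower in Zn-deficient roots than shoots (-1.79, limma adjusted p = 0.00142).

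ZIP1 was 3.26-fold higher in roots than in shoots of Zn-deficient plants (log2 1.70, limma adjusted p = 0.00261) and did not pass in the other 3 conditions. ZIP9 was 3.67-fold lower in hma2 hma4 roots than shoots (-1.88, limma adjusted p = 0.00269), with -1.20 without hma2 hma4 shoot replicate 1 and -2.55 without replicate 2. In the other 3 conditions ZIP9 did not pass, nor did ZIP12 in any of the 4. In control plants, however, ZIP12 passed as lower in roots with quantile normalization (-0.88, limma adjusted p = 0.0256) and median centring (-0.94, 0.0233). ZIP9 passed there as higher in roots, at 0.66, with array weights (limma adjusted p = 0.0464) and without Zn-deficient shoot replicate 1 (0.0499).

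**Figure D3:**
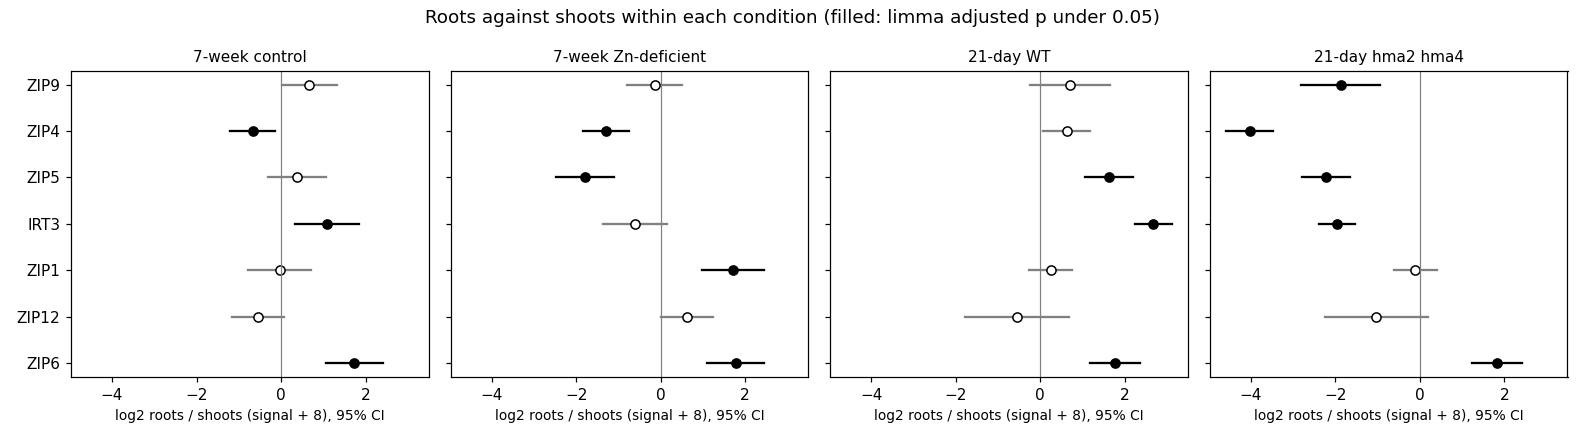
Log2 difference between roots and shoots (signal + 8) with its 95% interval for each member in the 4 conditions, filled where the limma adjusted p was under 0.05. ZIP6 lies between 1.73 and 1.82 in all 4 panels. IRT3 and ZIP5 passed the test on opposite sides of 0 in wild type and hma2 hma4. ZIP4, ZIP9 and ZIP1 also lie on opposite sides there, but their wild-type differences did not pass.

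The responses to Zn deficiency and to the mutant were set against each other in 1 fit of all 16 arrays. The 2 experiments differ in plant age and growth medium. They also differ in array quality, with actin ratios of 17.3 to 30.3 on the 21-day arrays against 1.74 to 8.57 on the 7-week arrays, and 25S signals of 1613 to 6920 against 31.0 to 450. None of these can be told apart from the difference between the responses, nor from any order or correlation of groups across the experiments. In shoots the Zn response exceeded the mutant response in 3 members (limma), where 0.399% of all probe sets were higher by the same rule, with ZIP5 at a log2 difference of 3.00 (SE 0.424, adjusted p = 0.00874), ZIP1 at 1.96 (adjusted p = 0.0488) and ZIP4 at 1.78 (adjusted p = 0.0416). ZIP9 at 2.25 (adjusted p = 0.0759), IRT3 at 1.36 (adjusted p = 0.151), ZIP12 at 1.27 (adjusted p = 0.395) and ZIP6 at 0.11 did not pass. ZIP9 passed with an added constant of 58 (2.57, limma adjusted p = 0.0143), with the replicate block (0.0352), and without Zn-deficient shoot replicate 1 (2.49, 0.0476) or hma2 hma4 shoot replicate 1 (2.93, 0.0321). With array weights none of the 7 passed. Leaving out 21-day wild-type shoot replicate 1 also left none, with ZIP5 at 2.95 (limma adjusted p = 0.0548). The count was 1 without 7-week control shoot replicate 1, wild-type shoot replicate 2, hma2 hma4 shoot replicate 2 or any 1 root array of the 7-week control, wild-type or hma2 hma4 groups. The share of called probe sets that were higher was 68.7%, and 54.7% with median centring.

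In roots the difference was called for 5 members, where 0.111% of all probe sets were higher by the same rule. The log2 differences were 5.81 for ZIP4 (SE 0.352, limma adjusted p = 2.03e-06), 4.69 for ZIP5 (0.000158), 4.30 for IRT3 (0.000228), 4.06 for ZIP1 (0.000273) and 4.03 for ZIP9 (0.00539). ZIP9 fell just outside the threshold without 21-day wild-type root replicate 1 (3.87, limma adjusted p = 0.0501). ZIP12, at 2.92, did not pass (limma adjusted p = 0.271), and ZIP6 was at 0.11. The ZIP12 difference was 2.17 without 21-day wild-type root replicate 1 (limma adjusted p = 0.985) and 3.67 without replicate 2, where it passed (limma adjusted p = 0.0234). It also passed with an added constant of 58 (2.37, limma adjusted p = 0.0080).

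**Figure D4:**
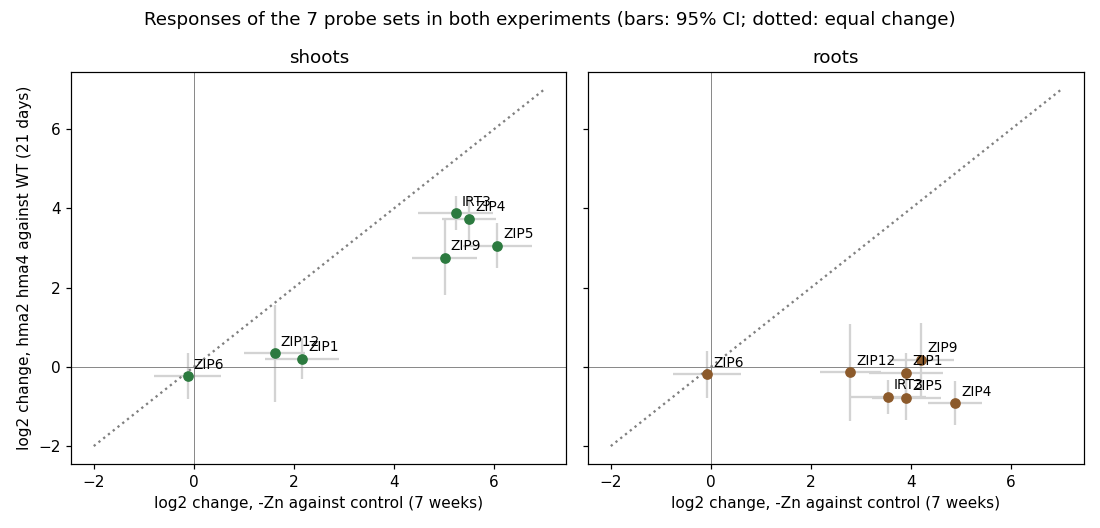
Log2 change in hma2 hma4 against wild type (vertical) over that in Zn-deficient against control plants (horizontal) for the 7 members in shoots and roots, with 95% intervals and a dotted line of equal change. In shoots 4 members lie between 2.76 and 3.88 on the vertical axis, and in roots all lie between -0.92 and 0.18.

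Each probe set's 8 groups were put in order of mean signal. For IRT3, ZIP4, ZIP5 and ZIP9 the Zn-deficient shoots came first, followed by the Zn-deficient roots and then the hma2 hma4 shoots. Mean signals of IRT3 were 13498 ± 1531 (SD, n = 2), 8893 ± 1564 and 6038 ± 1611 in these 3 groups, followed by 2576 ± 154 in 21-day wild-type roots, and no neighbours among these 4 groups overlapped. Neighbours overlapped between the shoots and roots of Zn-deficient plants for ZIP9 and between the Zn-deficient roots and the hma2 hma4 shoots for ZIP5. ZIP1 and ZIP12 had Zn-deficient roots first (4444 ± 574 and 653 ± 134) and then Zn-deficient shoots (1421 ± 619 and 418 ± 57.4), without overlap. The 4 ZIP1 groups of the 21-day experiment, at means of 193 to 232, overlapped with their neighbours. ZIP6 had the 4 root groups first, at means of 378 to 592, and the 4 shoot groups last, at 106 to 179.

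Across the 8 group means, the 15 pairs of members other than ZIP6 had Pearson correlations from 0.566 to 0.968 on the log2 scale, and the 6 pairs with ZIP6 had -0.19 to 0.297. These are descriptions over 8 groups, which share organs and experiments but no arrays. The probe sets most like ZIP9 by this measure, among 9416 paired with 1 gene, were those of AT5G65910 (r = 0.957), AT1G20380 (0.952), AT1G12030 (0.950), AT1G01240 (0.946) and AT5G14540 (0.924). The 5 most like each of ZIP1, ZIP4, ZIP5, ZIP12 and IRT3 had correlations from 0.820 to 0.946, and the 5 most like ZIP6 had 0.994 to 0.995.

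Other genes of Zn homeostasis were taken from lists. Of 2 bZIP regulators, 9 further ZIP-family genes, 9 genes of Zn export and sequestration and 4 nicotianamine synthases, which make a metal chelator, only bZIP19, MTP2 and MTP12 are named for a probe set in the annotation used here. bZIP19 read 588 to 869 in 7-week shoots and 1547 to 1911 in 7-week roots, with overlapping control and Zn-deficient ranges in both organs. Its log2 changes were -0.07 and -0.12 with Zn deficiency in shoots and roots and -0.02 and 0.09 in hma2 hma4 shoots and roots, and none passed. It was higher in roots in all 4 conditions, by 1.29, 1.24, 0.63 and 0.73 (limma adjusted p = 0.00413, 0.00568, 0.00176 and 0.000626).

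MTP2, a metal exporter of the endoplasmic reticulum, was listed at 1.0 and 4.17 in control roots and read 2217 and 3099 in Zn-deficient roots. It passed the filter on mean signal, 56.9 in the 7-week experiment, only through Zn-deficient roots, since the mean of the other 3 groups was 31.5, so no test of this difference is given. Measured against the background level of 52.2, the Zn-deficient root arrays of MTP2 were far above it while both control root arrays were below it. In shoots MTP2 read 16.3 and 22.5 in control and 60.3 and 84.6 in Zn-deficient plants, which did not pass (limma adjusted p = 0.0819). That test, too, was made only because Zn-deficient roots lifted MTP2 past the filter. In the 21-day experiment MTP2 was below the filter. MTP12, which belongs to the same family, passed the test in none of the comparisons.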

How the data were processed

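RNA of shoots and roots was measured on ATH1 arrays, 16 in all. In the table, the deposited values are log2 signals that the authors computed with MAS5, per the submitters' processing notes; the version is not given in the sources used here. From the values, each array was scaled to a mean of 500 after trimming 2% at either end, and 2413 values are at log2 = 0. The deposited log2 values were turned back into signals and log2(signal + 8) was tested, where 8 is the 10th percentile. After leaving out 64 control probe sets, those with a mean signal above the 25th percentile were kept (17059). The test was limma 3.58.1 under R 4.3.3 on group means (lmFit; eBayes with an intensity trend), with 1 fit of 8 arrays per experiment and 1 of all 16 for differences between responses. P-values were two-sided and adjusted by Benjamini-Hochberg over all probe sets, with a threshold of 0.05. The fit was tested on simulated data. Of all probe sets, 13513 are paired with 1 gene, 503 with several and 8794 are not listed. Names follow RefSeq, and 13436 matched it. The members and gene lists were chosen with earlier results of these data known; all members and all list genes with a probe set of their own are named. Alternatives were quantile normalization, median centring, added constants of 1 and 58, no filter or the 50th percentile, no trend, array weights, 1 fit of all arrays, a replicate block and each array left out. A planned count of promoter elements was not made, and no sequences were used here.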

Additional observations from a re-analysis of the deposited data

Results flagged for a closer look

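The mutant response of 3 members differed between organs in a direct test, the genotype by organ interaction of the 8 arrays of the 21-day experiment (log2 response of roots minus that of shoots). It was -4.65 for ZIP4, whose mean signal went from 138 in wild-type to 1964 in hma2 hma4 shoots and from 214 to 111 in roots. For IRT3 it was -4.63, with means of 400.1 and 6038 in shoots and 2576 and 1527 in roots. For ZIP5 it was -3.85, with means of 157 and 1446 in shoots and 499 and 287 in roots. The limma adjusted p-values are given above. The 25S signal and the root actin ratio differed between the genotypes, and their part was not tested.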

How the results depend on the processing

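In the Zn deficiency and mutant comparisons, the calls of ZIP4, ZIP5, IRT3 and ZIP9 with Zn deficiency in shoots, of ZIP9, ZIP1, ZIP4 and ZIP5 in roots, and of ZIP4, ZIP5 and IRT3 in hma2 hma4 shoots held in every alternative run. With 1 array left out, the number of members called was 4 to 5 (Zn deficiency, shoots), 4 to 6 (Zn deficiency, roots), 0 to 0 (Zn by organ), 3 to 4 and 0 to 0 (hma2 hma4 shoots and roots), 3 to 3 (genotype by organ), 1 to 4, 4 to 4, 3 to 4 and 5 to 5 (organs in control, Zn-deficient, wild-type and hma2 hma4 plants), and 0 to 4 and 4 to 6 (difference of responses, shoots and roots). The Zn by organ count was 1 with 1 fit of all 16 arrays. The count for the difference of responses in shoots was 1 with quantile normalization, an added constant of 1, no filter or no trend, and 0 with array weights. ZIP1 and ZIP12 lost their Zn-deficient shoot calls without a filter (adjusted p = 0.0563 and 0.0684) and with array weights (0.131 and 0.194), and ZIP12 also with quantile normalization (0.0614) and median centring (0.0517). The cause of these shifts was not tested.

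With the replicate number as a block, the counts were 6, 6, 0, 4, 0 and 3 for Zn deficiency in shoots, in roots and by organ and for the mutant in shoots, in roots and by organ, then 3, 4, 4 and 5 for the organs, and 4 and 5 for the differences of responses. ZIP4 gained a call between organs of 21-day wild type (adjusted p = 0.0195). The labels do not say that numbers pair samples. Between groups of an experiment, the differences of replicate 1 from replicate 2 had Pearson correlations of only -0.107 to 0.155. A block with crossed numbers in Zn-deficient roots, chosen after seeing the data, gave 6.

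Reversed signs concerned differences that had not passed the test. They were ZIP4 Zn by organ (0.0916 with quantile normalization), ZIP5 between control organs (-0.0164 with median centring), ZIP9 between Zn-deficient organs (0.15 with quantile normalization), ZIP6 genotype by organ (-0.0345 with quantile normalization and -0.0154 with a constant of 58) and the ZIP6 difference of responses in shoots (-0.0034 with quantile normalization). With 1 array left out, ZIP6 ran from -0.50 to 0.25 (Zn deficiency, shoots), -0.33 to 0.42 (Zn by organ), -0.65 to 0.19 (hma2 hma4 shoots), -0.37 to 0.47 (genotype by organ), -0.31 to 0.53 and -0.0239 to 0.24 (difference of responses, shoots and roots). ZIP12 ran from -0.89 to 0.62 (hma2 hma4 roots), -1.23 to 0.27 (genotype by organ) and -1.30 to 0.20 (wild-type organs). ZIP1 ran from -0.20 to 0.13 (control organs), -0.38 to 0.071 (hma2 hma4 roots) and -0.27 to 0.0388 (hma2 hma4 organs), and ZIP9 from -0.40 to 0.12 (Zn-deficient organs).

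The counts over all probe sets moved more, from 14 to 1440 for Zn-deficient shoots (157 as reported), 12 to 33 for roots (18), 12 to 179 for hma2 hma4 shoots (51), 0 to 6 for hma2 hma4 roots (1), 3 to 28 for genotype by organ (8), 0 to 142 for Zn by organ (2), and 11 to 776 and 11 to 50 for the differences of responses in shoots (99) and roots (21). With quantile normalization 3 of 5 Zn by organ calls and 2 of 4 calls in hma2 hma4 roots were higher, against 2 of 2 and 1 of 1. With the filter at the 50th percentile ZIP9, ZIP1 and ZIP12 were not tested in the 21-day experiment. Signals near background limited ZIP12 in 21-day plants and ZIP9 in 21-day wild-type shoots.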
